A study of Mus musculus with 8 samples.

Results

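Potassium, sodium and chloride channel genes were examined in mouse quadriceps, a mostly fast-twitch thigh muscle, with and without the glycerophosphodiesterase gene Gpcpd1. Members were taken by symbol: names that start with Kcn or Clcn, or with Scn followed by a digit, and at least 40 reads summed over the 8 libraries, with antisense and overlapping transcripts left out. Of 117 channel genes so named, among 54532 genes in each table, 36 met the rule, 51 had 1 to 39 reads and 30 had none. Symbols and read totals chose the members, and genotype did not enter the rule.

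Both groups were mice aged 3 months on chow diet with floxed Gpcpd1 on both alleles. Control mice (4 libraries) were negative for Mck Cre, and the MckCre Gpcpd1 mice (4 libraries, called knockout here) carried Cre under the muscle creatine kinase promoter, which is active in striated muscle fibres and leaves Gpcpd1 in the other cells of the tissue. Since Cre came with the loss of Gpcpd1, the effects of the transgene and of the loss cannot be told apart. RNA came from whole quadriceps and was read from the 3′ ends of polyadenylated transcripts (QuantSeq FWD), so reads do not scale with transcript length by design. Levels are given as CPM, a gene's reads scaled to a common library total after TMM scaling. In bulk tissue, fewer cells of a type and less RNA per cell cannot be told apart.

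A muscle fibre fires when voltage-gated sodium channels open, and potassium and chloride currents bring the membrane back to rest. In mammalian muscle the chloride channel ClC-1, the product of Clcn1, carries most of the resting conductance, and its loss causes myotonia. Inward rectifier and voltage-gated potassium channels set the resting potential and repolarise the fibre, while ATP-sensitive potassium channels tie excitability to the energy state of the cell. The remaining ClC proteins mostly exchange chloride for protons in endosomes and lysosomes.

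The start sites of a pair of members are printed here because Kcng4 had the largest fall among the tested members, and Clcn1, the chloride member with the most reads, had a difference near 0. Each sequence is the 250 bases before the RefSeq start on GRCm38.p6, 5′ to 3′ on the gene's strand. Kcng4 is the minus strand of chr8:119635681-119635930 and Clcn1 the plus strand of chr6:42286435-42286684. Capitals mark matches to the motifs searched, which were the E-boxes CAGCTG and CACGTG and the MEF2 consensus, on both strands. None of these motifs overlapped another here.
Kcng4: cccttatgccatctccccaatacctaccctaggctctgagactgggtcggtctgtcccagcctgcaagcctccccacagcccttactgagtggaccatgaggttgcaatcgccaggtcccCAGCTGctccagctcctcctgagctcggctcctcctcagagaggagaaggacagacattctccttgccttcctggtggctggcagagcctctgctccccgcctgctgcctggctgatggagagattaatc
Clcn1: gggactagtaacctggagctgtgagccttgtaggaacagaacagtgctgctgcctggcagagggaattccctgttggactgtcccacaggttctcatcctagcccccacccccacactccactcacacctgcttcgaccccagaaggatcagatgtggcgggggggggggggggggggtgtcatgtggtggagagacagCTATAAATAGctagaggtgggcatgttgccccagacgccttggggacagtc
In Kcng4 the E-box CAGCTG, a form bound by muscle basic helix-loop-helix factors, starts 130 bases before the start site. In Clcn1 the MEF2 match, a sequence bound by MEF2 factors of muscle, starts 51 bases before it. Among the 32851 promoter windows of this length in the table, 13.0% hold CAGCTG, 6.02% hold CACGTG and 0.508% hold the MEF2 consensus. Of the 36 members, 28 had an entry, with 40 windows in all. CAGCTG was found in 10 of the 40 windows, from 8 members, and CACGTG in 7, from 6 members. The MEF2 consensus was found in 1, that of Clcn1.

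Library totals ran from 4404116 to 5405999 reads, and Gpcpd1 fell from 2906 reads over the controls to 706 over the knockouts, although the reads lie at its 3′ end and need not cover the deleted part. Of the marker lists, muscle fibre had the highest sum in each library. Its 9 listed genes held between 150502 and 166612 CPM in controls and between 158901 and 165029 in knockouts. Myh7, the myosin gene of slow fibres, had 24 reads over the controls and 23 over the knockouts. The members held 0.156% to 0.164% of the reads of a control library and 0.129% to 0.145% of a knockout library.

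Of the 36 members, 31 had enough reads to be tested by edgeR's quasi-likelihood test. The test called 5 of them (16.1%) lower in the knockout at an adjusted p of 0.05 and 0 higher. Among all 10691 tested genes 6.80% were lower and 8.87% higher. Kcng4, Kcnma1 and Kcnj11, of 3 different channel classes, were among the 5 lower members. At an unadjusted p under 0.05, 9 members were lower and 2 higher, and DESeq2 called 5 lower and 0 higher. By limma voom 5 were lower and 1, Kcnq5, was higher. In 7 tested members (22.6%) each knockout library lay below each control library, and in 0 above. Over all tested genes these shares were 8.92% below and 10.3% above. The median log2 fold change of the tested members was -0.12, with 13 above 0 and 18 below, and that of all tested genes was 0.01.

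Because the low-count filter can favour a gene that is high in 1 group, all 36 members were also tested without it. Then 7 were lower and 1 was higher, against 6.52% and 7.93% of the 12133 genes with at least 40 reads. The additions were Clcn4 and Kcnc4 on the lower side and Scn3b on the higher. In that fit 18 of the 36 members were above 0 and 18 below, with a median of -0.01.

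**Figure D1:**
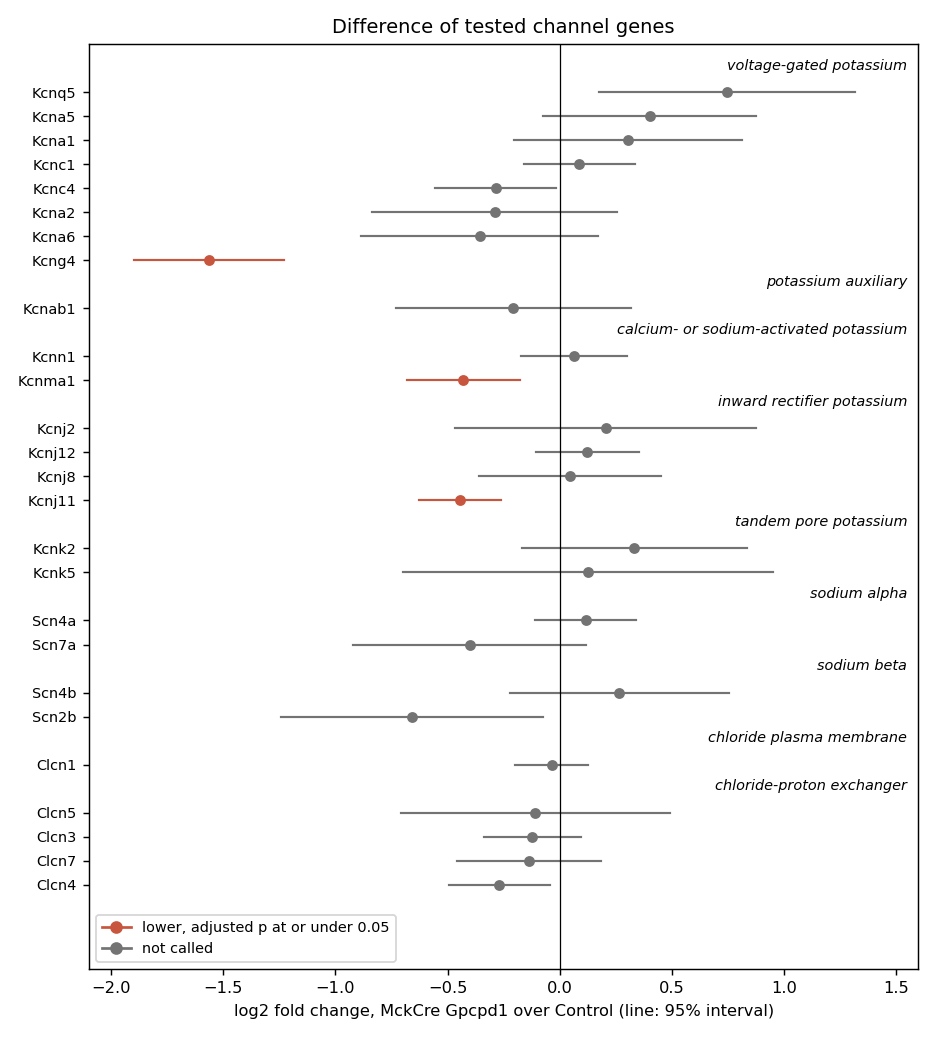
Log2 fold change (knockout over control, horizontal axis) of 26 tested channel genes named in the text, grouped by class, with the unadjusted 95% interval as a line. Kcng4, Kcnma1 and Kcnj11, in red, passed an adjusted p of 0.05 and lie below 0, with Kcng4 at -1.56 farthest out.

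Voltage-gated potassium channels were the largest class, with 12 members, of which 11 were tested, 2 were lower and 0 higher. Kcng4 encodes Kv6.4, a modifier subunit that makes no channel alone and joins other voltage-gated subunits. It held 20.7, 18.04, 19.0 and 20.8 CPM in controls 1 to 4 and 5.45, 5.73, 8.36 and 6.83 CPM in knockouts 1 to 4. The lowest control stood at more than double the highest knockout. Mean Kcng4 fell from 19.6 ± 1.34 to 6.59 ± 1.32 CPM (SD, n = 4 each), 33.6% of control, a log2 fold change of -1.56 (SE 0.16, edgeR adjusted p = 2.1e-07).

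Kcnc genes encode the Kv3 channels, which open and close fast at depolarised potentials. Kcnc4, the member of highest level in this class, had 68.3, 114.1, 98.7 and 82.2 CPM in controls and 86.1, 72.9, 68.9 and 70.4 in knockouts. Control 1 lay below every knockout and control 4 below knockout 1, so the groups overlapped, and Kcnc4 did not pass (log2 fold change -0.29, SE 0.13, edgeR adjusted p = 0.151). Without control 1 its value was -0.40, called with an edgeR adjusted p = 0.0176. Kcnc1 had means of 60.7 ± 6.11 CPM in controls and 64.5 ± 13.4 in knockouts (SD, n = 4 each), and knockout 1 at 84.2 CPM stood above every other library.

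Kcnq genes encode the slow M-type channels. Kcnq5 held 4.95, 2.23, 2.15 and 2.73 CPM in controls and 6.07, 4.97, 4.64 and 4.48 in knockouts. Control 1 reached into the knockout range, and the log2 fold change of 0.75 (SE 0.28) did not pass (edgeR adjusted p = 0.0687). Without control 1 the Kcnq5 value was 1.08 and was called (edgeR adjusted p = 0.0114).

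The Kcna members encode the Kv1 channels. Kcna1, Kcna2, Kcna5 and Kcna6 had between 140 and 213 reads each over the 8 libraries, and means between 3.21 and 6.11 CPM in either group. Kcna1 and Kcna5 had log2 fold changes of 0.30 and 0.40, and Kcna2 and Kcna6 of -0.29 and -0.36. None passed, and their standard errors of 0.23 to 0.26 mean that differences of this size were not detectable at this depth. Kcna7, a Kv1 gene typical of skeletal muscle, had 4 to 7 reads in each library, too few for the test. Myelinating Schwann cells and axons are another source of Kv1 transcripts. Of 9 Schwann cell and nerve markers 6 were tested and 0 called, none was at 0 reads over the 8 libraries, and their summed level ran from 59.3 to 85.7 CPM in controls and from 63.8 to 74.0 in knockouts. Their part in the Kcna values was not tested.

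**Figure D2:**
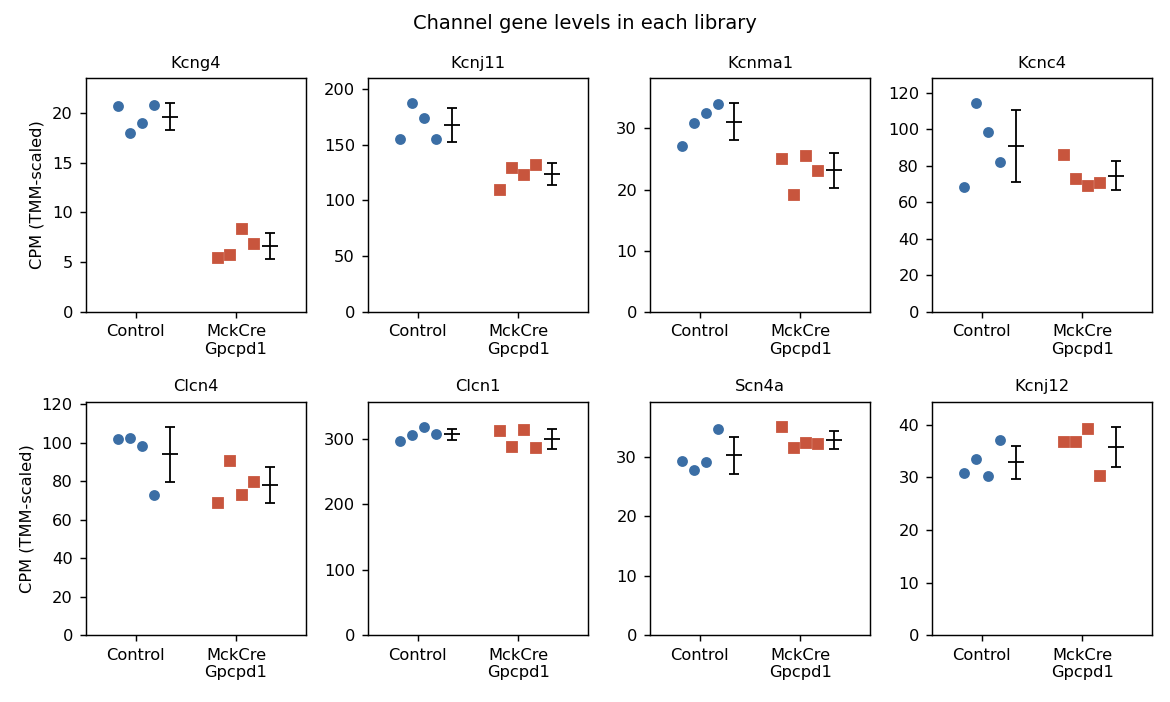
Level in CPM (vertical axis, from 0) of 8 channel genes in each control (circles) and knockout (squares) library, with the mean and SD of 4 libraries as bars. The 2 groups stand apart in Kcng4, Kcnj11 and Kcnma1 and overlap in Kcnc4, Clcn4, Clcn1, Scn4a and Kcnj12.

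The class of calcium- or sodium-activated potassium channels, grouped by gene name, had 3 members, with 2 tested, 1 lower and 0 higher. Kcnma1 encodes the large-conductance BK channel, opened by calcium and voltage together. Its level was 27.1, 30.8, 32.5 and 34.05 CPM in controls and 24.9, 19.1, 25.5 and 23.0 in knockouts. Every knockout lay below every control, with control 1 and knockout 3 the closest. Kcnma1 fell by 0.43 on the log2 scale (SE 0.12, edgeR adjusted p = 0.0163). This call rested on single libraries: without control 4 the edgeR adjusted p was 0.0501, and without knockout 2 it was 0.0792 with a log2 fold change of -0.35. Kcnma1 is also expressed in vascular smooth muscle. Of 9 smooth muscle and pericyte markers all were tested and 0 called. Their sum ran from 453.0 to 491.1 CPM in controls and from 446.1 to 509.5 in knockouts. Most of it was Rgs5, with means of 347.1 CPM in controls and 351.6 in knockouts. Acta2 had 45.8 to 57.3 CPM in controls, 80.9 in knockout 1 and 40.3 to 44.3 in the other knockouts. Myh11 had a log2 fold change of -0.23 (SE 0.15) and Cspg4 of 0.57 (SE 0.20), and the list's median was -0.03. The part of these cells in the Kcnma1 fall was not tested.

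Kcnn1, a small-conductance calcium-activated channel, had means of 33.0 ± 4.53 and 34.6 ± 2.61 CPM (SD, n = 4 each), with overlapping groups and a 95% interval of the log2 fold change from -0.17 to 0.30. Kcnn3, known for its return in denervated muscle, was below the rule's minimum, with 11 reads over the controls and 25 over the knockouts. The groups overlapped, with 4, 1, 1 and 5 reads in controls 1 to 4 and 3, 9, 8 and 5 in knockouts 1 to 4. Without the low-count filter the Kcnn3 value was 1.08 (SE 0.58, edgeR adjusted p = 0.339), which did not pass. Kcnu1, a relative of the BK channel gene known from testis, had 2 to 7 reads in controls and 5 to 12 in knockouts and was not tested.

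Inward rectifiers had 4 members, all tested, with 1 lower and 0 higher. Kcnj11 encodes Kir6.2, the pore of the ATP-sensitive potassium channel. It held 155.1, 187.1, 173.7 and 155.5 CPM in controls and 109.6, 128.9, 123.2 and 131.6 in knockouts. The groups stood well apart, and mean Kcnj11 fell from 167.8 ± 15.5 to 123.3 ± 9.82 CPM (SD, n = 4 each), 73.5% of control. Its log2 fold change was -0.44 (SE 0.09, edgeR adjusted p = 0.0010), between -0.49 and -0.40 in the 16 alternatives.

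The pore needs a sulfonylurea receptor, which in muscle is mostly the Abcc9 product. Abcc9 had 145.2, 117.0, 120.0 and 133.5 CPM in controls and 103.9, 114.4, 120.4 and 117.1 in knockouts, with overlapping groups. Its log2 fold change of -0.18 did not pass (SE 0.09, edgeR adjusted p = 0.198), and the difference between Kcnj11 and Abcc9 was not tested. Abcc8, the receptor of pancreatic beta cells, was near 1 CPM in both groups and was not tested.

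Kcnj12 and Kcnj2 encode Kir2 channels that hold the resting potential. Kcnj12 had 32.8 ± 3.11 CPM in controls and 35.7 ± 3.80 in knockouts (SD, n = 4 each), and its 95% interval ran from -0.11 to 0.35 on the log2 scale. Kcnj2 was rarer, at 7.75 CPM in control 1 against 2.15 to 3.24 in the other controls and 3.56 to 5.33 in knockouts, and it did not pass (log2 fold change 0.20, SE 0.32, and 0.74 without control 1). Kcnj8, the Kir6.1 pore of vascular smooth muscle and pericytes, had 8.83 to 13.2 CPM in controls and 8.73 to 16.6 in knockouts, with a log2 fold change of 0.05. Knockout 4 was its highest library, and without it the Kcnj8 value was -0.20.

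The tandem pore potassium channels, which carry background leak current, had 2 tested members, Kcnk2 and Kcnk5, at 0.33 (SE 0.24) and 0.13 (SE 0.40) on the log2 scale, and neither passed. Auxiliary potassium subunits were scarce. Kcnab1, a cytoplasmic beta subunit of Kv1 channels, had a log2 fold change of -0.21 (SE 0.25), and Kcne4, a small membrane subunit, ran from 0 to 15 reads in controls and from 3 to 14 in knockouts and was not tested. Kcne3, another such subunit, fell below the rule with 20 reads over the controls and 16 over the knockouts.

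Sodium channels had 3 alpha subunit members, with 2 tested and 0 called. Scn4a encodes Nav1.4, the adult skeletal muscle channel that carries the action potential. It held 29.3, 27.8, 29.2 and 34.7 CPM in controls and 35.0, 31.5, 32.3 and 32.2 in knockouts, so control 4 lay among the knockouts. The log2 fold change of Scn4a was 0.12 (SE 0.11, edgeR adjusted p = 0.534), with a 95% interval from -0.11 to 0.34. Scn7a, an atypical sodium channel of glia and other non-excitable cells, had a value of -0.40 (SE 0.25), which did not pass. Scn2a, a neuronal alpha subunit, had 3 to 7 reads in each control and 9 or 10 in each knockout. Its groups did not overlap, but it was not tested with the filter, and without it the value was 0.71 (SE 0.44, edgeR adjusted p = 0.447).

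Beta subunits guide sodium channels to the membrane and set their gating. Scn4b varied widely within each group, from 73.8 to 136.4 CPM in controls and from 112.8 to 168.5 in knockouts. Its log2 fold change of 0.27 (SE 0.21) did not pass. Scn2b had 3.24 to 3.99 CPM in controls and 1.71 to 3.16 in knockouts, without overlap, and its log2 fold change of -0.66 (SE 0.28) did not pass (edgeR adjusted p = 0.122). Scn3b had 2, 1, 4 and 1 reads in controls 1 to 4 and 3, 14, 11 and 7 in knockouts 1 to 4, with knockout 1 inside the control range. The filter removed it. Without the filter it was called higher (log2 fold change 1.99, SE 0.57, edgeR adjusted p = 0.0094), from control counts at or near the floor of 3 reads, so its size is uncertain.

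**Figure D3:**
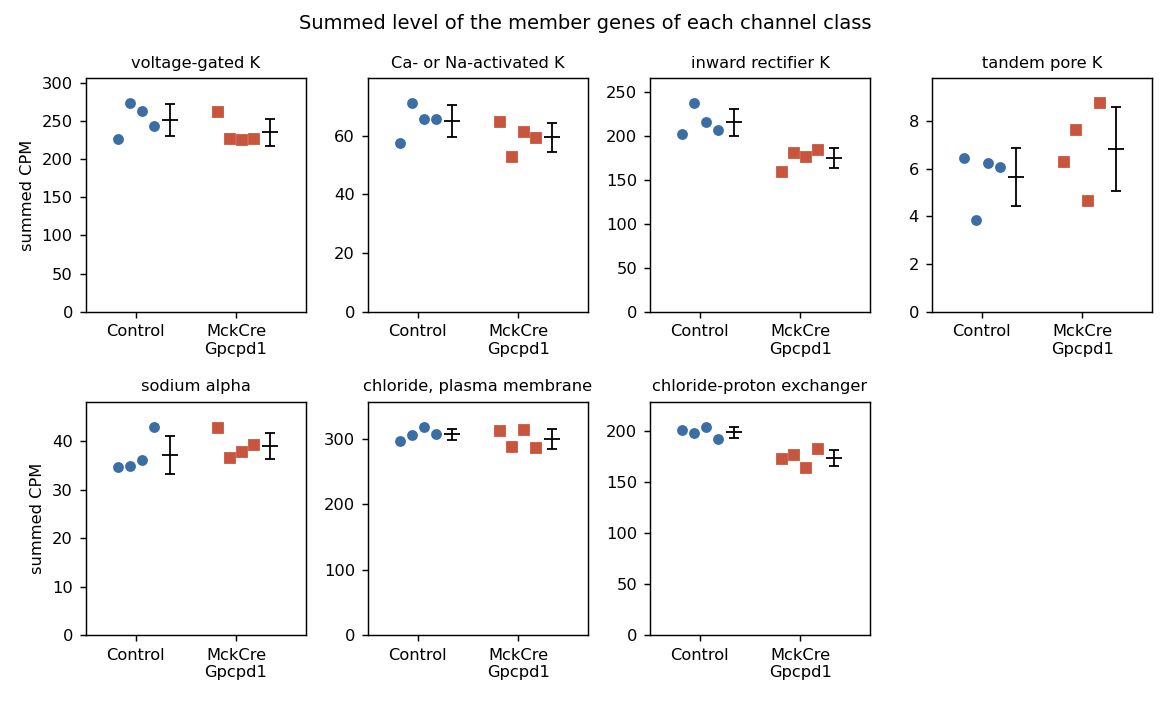
Summed CPM of the members of 7 channel classes (vertical axes, from 0) in each control (circles) and knockout (squares) library, with mean and SD as bars. The knockouts lie below the controls in the inward rectifier and the chloride-proton exchanger panels, and the groups overlap in the other panels.

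Chloride channels had 6 members, all tested, with 0 called. Clcn1 held 297.0, 306.7, 318.0 and 307.3 CPM in controls and 311.7, 287.6, 314.2 and 285.6 in knockouts. The groups overlapped, with 2 knockouts inside the control range. The log2 fold change of Clcn1 was -0.04 (SE 0.08, edgeR adjusted p = 0.816), and its 95% interval from -0.20 to 0.13 bounds the difference more tightly than for any other tested member. The transcript level says nothing of Clcn1 splicing, which 3′ reads do not resolve. Of 4 tested splicing factors that act on Clcn1, 1 was higher and 2 were lower: Mbnl2 rose from 453.7 ± 34.3 to 579.5 ± 59.1 CPM (SD, n = 4 each), while Mbnl1 fell by 0.29 (SE 0.09) and Celf2 by 0.30 (SE 0.08) on the log2 scale. The Mbnl1 call was kept in 12 of 16 alternatives and those of Mbnl2 and Celf2 in all 16.

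The 5 chloride-proton exchanger genes all had log2 fold changes below 0, from -0.29 to -0.11, and none passed. Clcn5 moved above 0 without control 2 (0.07) or knockout 3 (0.13), while under each other scaling all 5 stayed below 0. Clcn4 held 101.9, 102.6, 98.5 and 72.9 CPM in controls and 68.9, 90.3, 72.6 and 79.8 in knockouts, so that control 4 alone reached the knockout range. Its log2 fold change was -0.27 (SE 0.11, edgeR adjusted p = 0.102), and -0.38 without control 4, where it was called (edgeR adjusted p = 0.0095). Clcn3 had means of 85.4 ± 11.2 and 78.5 ± 9.57 CPM (SD, n = 4 each). Clcn7, the lysosomal exchanger, had 12.2 ± 0.94 and 11.0 ± 1.44 CPM, and its subunit gene Ostm1 a log2 fold change of 0.15 (SE 0.16). Summed over the 5 genes, the exchangers held 192.3 to 204.2 CPM in controls and 163.7 to 183.0 in knockouts, a description without a test.

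By class the summed levels also show which member carries each class. Inward rectifiers summed to 215.5 ± 15.3 CPM in controls and 174.9 ± 11.2 in knockouts (SD, n = 4 each), most of it Kcnj11. Sodium channel alpha subunits summed to 37.1 ± 3.89 and 39.04 ± 2.71, most of it Scn4a. Voltage-gated potassium channels summed to 251.1 ± 20.7 and 234.6 ± 18.02, with overlapping groups.

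On GRCm38, Kcng4 (ENSMUSG00000045246) lies on chromosome 8 at 119623854 to 119635680, Kcnma1 on chromosome 14 at 23289431 to 24014491 and Kcnj11 on chromosome 7 at 46093953 to 46100764, all on the minus strand. Exons of Kcnma1 overlap a divergent non-coding transcript, which had 6 reads over the 8 libraries. No exon of another annotated gene overlaps those of Kcng4 or Kcnj11.

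At the rule's minimum of 40 reads, the members just inside were Scn3b with 43 reads and Kcna7 with 46. Just outside were Kcnj15 with 37 and Kcnh2, Kcne3 and Kcnn3 with 36 each. Kcnh2, which encodes the ERG channel, had 2 reads in each control and 6, 6, 9 and 7 in knockouts 1 to 4. These genes entered no count above.

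A list of 104 partner and related ion transport genes had 61 tested, with 10 higher and 9 lower and a median log2 fold change of 0.04, where 8.87% of all tested genes were higher and 6.80% lower. The 19 calls became 12 without knockout 4. The sodium pump restores the gradients that the channels spend, and of 9 tested genes of the pump's subunit families and regulators 5 were higher and 2 lower. Atp1b4, related in sequence to the pump's beta subunits but in placental mammals a protein of the inner nuclear membrane of muscle, had 15.1 ± 3.19 CPM in controls and 44.9 ± 4.42 in knockouts (SD, n = 4), a log2 fold change of 1.57 (SE 0.13, edgeR adjusted p = 1.2e-08). The pump beta subunit genes Atp1b2 rose by 0.67 (SE 0.08) and Atp1b1 by 0.68 (SE 0.13), and the pump regulator Fxyd6 by 0.95 (SE 0.15). Atp1b3, chosen after its values were seen, fell by 0.42 (SE 0.14), a call kept in 9 of 16 alternatives.

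Of 8 tested sodium channel partners 3 were higher and 0 lower. The ankyrin gene Ank3, whose product anchors sodium channels, had 255.1 ± 12.5 CPM in controls and 350.8 ± 15.2 in knockouts (SD, n = 4) and rose by 0.46 (SE 0.08), and Ank2 rose by 0.49 (SE 0.13). Fgf11 had a value of 1.17 (SE 0.38), called in 8 of 15 alternatives. Of 5 tested potassium channel partners 1 was lower: Lrrc38, a gamma subunit of the BK channel, had 61.0, 69.7, 78.5 and 59.5 CPM in controls and 42.3, 48.1, 52.4 and 50.1 in knockouts. Those groups did not overlap, and Lrrc38 fell by 0.48 (SE 0.10, edgeR adjusted p = 0.0021), next to the fall of the BK pore gene Kcnma1.

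Cation-chloride cotransport genes had 1 of 10 tested higher and 2 lower. Slc12a2, which loads cells with sodium, potassium and chloride, fell from 128.1 ± 10.7 to 71.3 ± 5.93 CPM (SD, n = 4 each), Wnk3, a kinase that activates it, fell by 1.24 (SE 0.37), and Slc12a4, a potassium-chloride exporter, rose by 0.54 (SE 0.18). The last 2 calls were kept in 12 of 15 and 10 of 16 alternatives. Among other chloride channels 1 of 14 was lower and 0 higher, the scramblase family gene Ano5 of muscle (-0.32, SE 0.08). Among other cation channels 1 of 8 was lower and 0 higher, Trpm4 (-0.42, SE 0.14), kept in 7 of 16. The 2 tested partners of the ATP-sensitive channel and the 1 tested chloride channel partner, Ostm1, were not called.

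**Figure D4:**
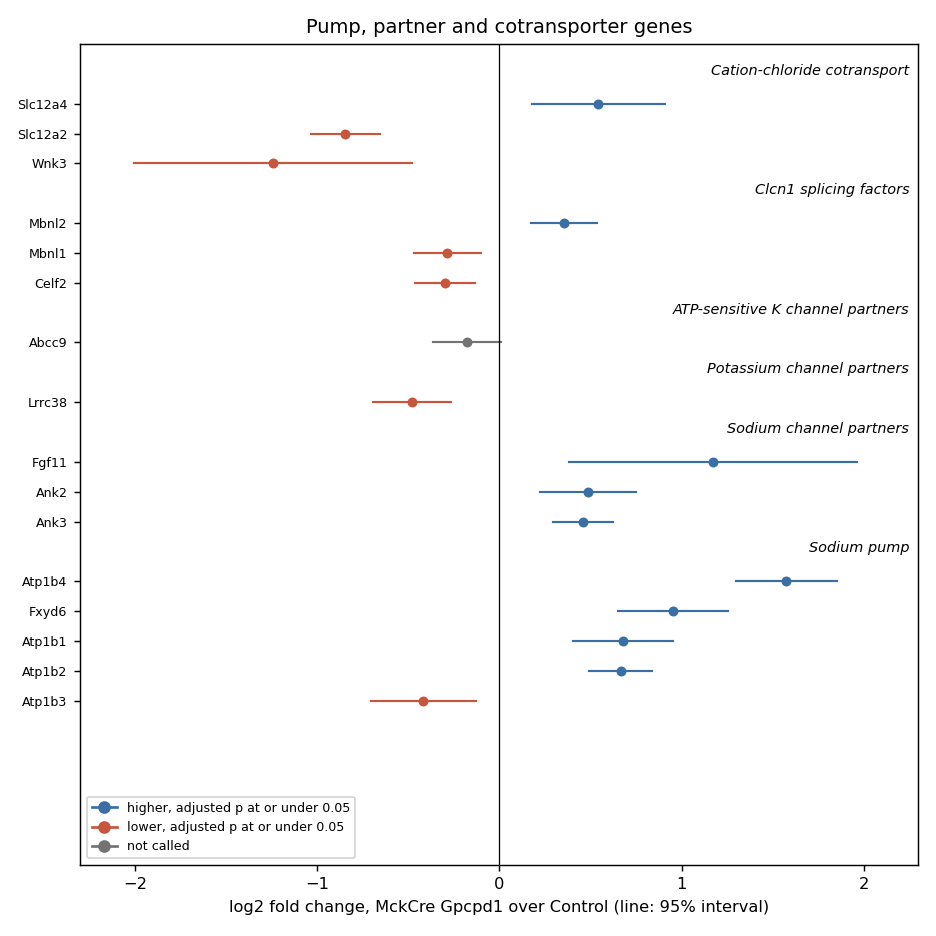
Log2 fold change (knockout over control, horizontal axis) of 16 tested genes named in the text, mostly those called, from 6 of the partner lists, with unadjusted 95% intervals as lines. Blue marks genes called higher and red genes called lower. Atp1b4, Fgf11 and Fxyd6 stand farthest to the right, followed by the pump beta subunit genes Atp1b1 and Atp1b2, and Slc12a2 and Wnk3 stand to the left.

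Of 52 tested markers of muscle fibres and of other cell types in the tissue, 1 was higher and 5 were lower. Among all tested genes 8.87% were higher and 6.80% lower. Endothelial (8 tested), smooth muscle and pericyte (9), adipocyte (4), satellite cell (2) and haemoglobin (4) lists had 0 called. Macrophage markers had 3 of 6 tested lower, with summed levels of 66.1 to 111.2 CPM in controls and 49.7 to 79.7 in knockouts, and fibro-adipogenic markers 1 of 5 lower, with 456.2 to 556.4 and 382.3 to 452.0 CPM. No marker was at 0 reads over the 8 libraries. In the muscle fibre list Myh4, the fast IIb myosin gene, was lower (-0.31), a call kept in all 16 alternatives, and Acta1, skeletal actin, was higher (0.26), a call kept in 6 of 16. Myh2, the IIa myosin gene, had 213.0 to 535.7 CPM in controls and 540.9 to 1394 in knockouts, without overlap. Its log2 fold change of 1.46 (SE 0.41) did not pass by edgeR (adjusted p = 0.0644) and passed by DESeq2 (adjusted p = 0.0055). Myh1, the IIx myosin gene, had 546.5 to 1137 CPM in controls and 1055 to 1499 in knockouts, a log2 fold change of 0.67 (SE 0.24) that did not pass (edgeR adjusted p = 0.112). The part of these shifts in the fall of Kcng4, Kcnma1 and Kcnj11 was not tested.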

How the data were processed

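RNA from 8 quadriceps libraries was analysed, 4 per genotype. Each deposited table holds unnormalized whole-number counts by Ensembl gene, per the file headers. Bowtie2 2.3.4.1, Subread 1.6.2 and featureCounts, with the builds mm10 and GRCm38, are named per the submitters' processing notes. For annotation release and strand setting nothing was given in the sources used, so overlapping genes have uncertain counts. Names and coordinates came from GENCODE M21 on GRCm38, and promoter windows from RefSeq.

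Counts were tested in R 4.3.3 with edgeR 4.0.16: filterByExpr (minimum count 10, minimum total 15, leaving 10691 genes), TMM scaling, a robust quasi-likelihood F test, and Benjamini-Hochberg adjustment over all tested genes at 0.05. Standard errors (SE) were derived from the fold change and its F statistic. At these totals 3 reads are 0.555 to 0.681 CPM, a floor for counting error only. Replicates were numbered in accession order and pair nothing. The labels do not say that each library is a separate mouse, so p-values measure the spread between libraries. No pair of libraries agreed within sampling noise (chi-square per degree of freedom 2.33 to 7.96 within genotypes), so none was merged. The procedure was also run on simulated counts with far fewer changed genes than were called here, a check of the code and not of these calls.

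The 16 alternatives were no filter, at least 5 CPM in 4 libraries, RLE, upper quartile or no scaling, DESeq2 1.42.0, limma voom (limma 3.58.1), edgeR without robust estimation, and each library left out. Members, classes and lists were chosen with earlier results of these data known. Genes named by rule were members called, textbook channels of muscle excitability, the member of highest level in each class, and up to 4 called genes of each partner list, lowest p first. Other genes given with values were added after their values were seen. Results for some genes are not reported here; they stay in the counts.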

Additional observations from a re-analysis of the deposited data

Results flagged for a closer look

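Clcn4 stood at 72.9 CPM (347 reads) in control 4, against 98.5 to 102.6 CPM (473 to 506 reads) in the other controls. The gap to the nearest control was 0.862 of the group's range, above Dixon's 95% critical value for 4 samples. It was the 1 such library among 72 groups of 4 examined over the 36 members, where chance gives about 1 in 20.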

How the results depend on the processing

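The number of channel genes lower in the knockout was 5 to 7 in the 16 alternatives, and the number higher was 1 without the low-count filter (Scn3b), 1 by limma voom (Kcnq5), 0 to 1 when each library was left out (1 without control 1, 2 or 3), and otherwise 0. Of 79 values of the 5 called members under alternatives, 77 were still called, and both exceptions were Kcnma1. Of 405 values of members not called, 15 were called in an alternative, none with a changed sign, and 11 changed sign without a call. The count of changed partner and related genes, 19, ran from 12 (without knockout 4) to 18 when each library was left out, an alternative added after the data were seen, and from 15 to 22 otherwise; the cause was not tested. The total of changed genes ran from 1307 to 1835. Depth limits members under 5 CPM in both groups, whose standard errors were 0.24 or more. No paired analysis was possible because the labels give the groups no shared replicate numbers.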

Other observations

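The antisense transcript Kcnq1ot1, an imprinted non-coding RNA left out by the rule, had 302, 304, 315 and 307 reads in controls 1 to 4 and 396, 459, 478 and 468 in knockouts 1 to 4, a log2 fold change of 0.51 (SE 0.09, edgeR adjusted p = 0.00023). Each knockout library lay above each control library. Kcnq1, the channel gene on the opposite strand of that locus, had 13 reads over the controls and 8 over the knockouts. The strand setting of the counts is unknown.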
